A study of Mus musculus with 8 samples.

Results

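The genes studied were 10 mouse genes of chromosome condensation and DNA bending, measured by single-cell RNA-seq in the SN4741 line. They were taken by symbol from the gene list that all 8 libraries share, as 10 of 31053 listed genes: Mki67, Top2a, Smc2, Smc4, Ncapd2, Ncapg, Ncaph, Hmgb1, Hmgb2 and Hmgb3. Each had UMIs in every library, and all 10 passed the filter on low counts together with 15810 genes in all. SN4741 is a line of mouse embryonic neural cells that carries a temperature-sensitive SV40 large T antigen driven by a fragment of the tyrosine hydroxylase promoter. The antigen keeps the cells dividing at 37 °C and is less active at 39 °C. The labels give the genotype as WT and the cell type as neural precursor for both groups, and the line was made as 1 clone, whose chromosome number varies between cells. The 4 control libraries came from cells kept at 37 °C in medium with 10% fetal bovine serum. The 4 other libraries came from cells whose medium was replaced 24 h after passage by one with 0.5% serum and which then stayed at 39 °C for 48 h. Temperature and serum changed together, so their effects cannot be told apart. The time from passage to harvest is not given for the 37 °C cells, so it may differ as well. Below, "at 39 °C" stands for all of these. The study describes the libraries of a group as replicates cultured at that temperature and does not say how far the cultures were independent, so every p measures the spread between these libraries, which may be technical.

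When a cell enters mitosis its chromatin is packed into separate rods. Condensin I and condensin II, ring complexes that share the ATPase pair SMC2 and SMC4 and differ in their other subunits, form the loops of these rods. Topoisomerase IIα, the product of Top2a, cuts and rejoins both DNA strands so that sister chromatids come apart. Ki-67, the product of Mki67, coats the surface of mitotic chromosomes and keeps them apart, and it is the antigen most often stained to mark dividing cells. HMGB1, HMGB2 and HMGB3 are small proteins that bend DNA through HMG boxes. HMGB1 is abundant in nearly every nucleus and also acts as an alarm signal outside the cell, while HMGB2 and HMGB3 are found mostly in dividing and embryonic cells.

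Many genes of late cell cycle share 2 short promoter elements, the CCAAT box and the cell cycle homology region (CHR), so the promoters of the 10 genes were read for them. Windows from 250 bases before to 50 bases after the start site were available from RefSeq (GRCm38.p6, the assembly of the deposited files) for 9 genes, not for Smc4. CHR was searched as TTTGAA or TTCGAA and the CCAAT box as CCAAT, each on both strands. A CHR match was present in 7 of the 9 genes, all but Ncaph and Hmgb1, against 19.2% of 32851 windows of this length. A CCAAT match was present in 8 of 9, all but Ncaph, against 37.4% of all windows. An E2F element, searched as TTCCCGC or TTGGCGC on both strands, was present in Mki67, Ncapd2, Ncapg and Ncaph, against 6.81% of all windows. These matches are descriptions of letters and not tested binding sites.

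The 160 bases before the start site are shown for Mki67 and Top2a, the 2 genes that changed most, and for the 3 HMGB genes, whose promoters differ in these elements. Each run reads 5′ to 3′ on the strand of the gene, holds no base of the exons annotated for it, and has the CHR and CCAAT matches of either strand in capitals. The run of Hmgb1 lies within the annotated span of its gene, which reaches chr5:149184489.
Mki67, chr7:135716380-135716539, minus strand: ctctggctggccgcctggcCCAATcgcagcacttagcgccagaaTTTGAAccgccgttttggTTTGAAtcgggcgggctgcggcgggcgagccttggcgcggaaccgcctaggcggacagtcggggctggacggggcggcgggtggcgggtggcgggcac
Top2a, chr11:99024190-99024349, minus strand: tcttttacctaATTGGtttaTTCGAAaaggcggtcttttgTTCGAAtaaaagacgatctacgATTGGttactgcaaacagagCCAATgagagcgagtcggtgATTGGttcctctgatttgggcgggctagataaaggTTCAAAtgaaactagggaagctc
Hmgb2, chr8:57511683-57511842, plus strand: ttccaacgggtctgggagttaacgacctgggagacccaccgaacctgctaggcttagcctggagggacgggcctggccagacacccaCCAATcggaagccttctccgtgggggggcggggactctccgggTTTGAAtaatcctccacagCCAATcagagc
Hmgb3, chrX:71555757-71555916, plus strand: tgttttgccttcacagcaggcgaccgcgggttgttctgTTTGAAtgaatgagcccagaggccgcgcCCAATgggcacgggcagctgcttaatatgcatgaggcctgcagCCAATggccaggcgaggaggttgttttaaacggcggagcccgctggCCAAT
Hmgb1, first of 2 listed starts, chr5:149053058-149053217, minus strand: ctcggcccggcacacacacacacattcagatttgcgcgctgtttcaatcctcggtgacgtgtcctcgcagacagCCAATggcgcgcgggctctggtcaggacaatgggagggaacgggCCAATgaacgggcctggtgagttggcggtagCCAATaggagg
Over the full windows Mki67 held 2 CHR and 3 CCAAT matches, Top2a 4 and 6, Hmgb2 2 and 4, and Hmgb3 1 and 3. The Hmgb1 window held 3 CCAAT matches and no CHR match, and the window of its second start site held neither.

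After cells over 15% mitochondrial UMIs, under 200 genes or over 6000 genes were left out, 18351 of 19125 cells remained, 985 to 3494 per library, with 17166686 to 29633818 UMIs per library. Median UMIs per cell ranged from 6676 to 16665, both at 39 °C, and median mitochondrial shares from 7.55% to 7.89% at 37 °C and from 8.04% to 8.85% at 39 °C. No pair of libraries shared more than 5 cell barcodes. Of 10 genes listed as neural precursor markers Nes, Vim and Sox2 were abundant, very unevenly. Vim had 604063 UMIs at 37 °C, Nes 52352 and Sox2 6210. At 39 °C Nes fell (log2 change -2.11), Sox2 rose (0.47) and Vim did not pass (-0.06). Of the 10 markers 2 (Sox3 and Hes5) had no UMI and 4 others had at most 6 UMIs in all libraries together. The summed level of 10 mesenchymal markers was 2071 to 2131 CPM at 37 °C and 865 to 891 CPM at 39 °C, with 6 of the 8 tested lower. The summed level of 8 neuronal markers was 165 to 194 and 79.3 to 97.7 CPM, with 3 of 5 tested lower and Dcx at 0, and that of 6 glial markers was 3.01 to 3.55 and 4.70 to 5.48 CPM, with Olig1 and Olig2 at 0. The part of these differences in the results was not tested.

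All 10 genes fell at 39 °C in the sum over all cells. Levels are given as CPM, UMIs of a gene scaled to a common library total with TMM factors, and changes as log2 fold changes of 39 °C over 37 °C from edgeR's quasi-likelihood test with Benjamini-Hochberg adjustment over all genes tested. A gene is said to fall or rise at an adjusted p under 0.05, and to be called at an adjusted p under 0.01 with a log2 change over 1.5 in size. In each of the 10 genes all 39 °C libraries lay below all 37 °C libraries, as did those of 28% of all genes tested. Of all genes tested 30.5% fell, and 7 of the 10 were called lower, against 3.62% of all genes. Their median log2 change was -1.71, beside 0.02 over all genes. In a sum over cells, fewer cells with a transcript and less RNA per cell cannot be told apart.

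Ki-67 and topoisomerase IIα genes changed most. Mki67 (ENSMUSG00000031004, chr7:135689784-135716361) measured 234, 237, 250 and 271 CPM in the 4 libraries at 37 °C and 17.6, 17.4, 20.8 and 21.2 CPM in those at 39 °C. The lowest 37 °C library was still far above the highest 39 °C one, and the log2 change was -3.68 (SE 0.070, adjusted p = 4.55e-18), a level 12.8-fold lower. Top2a (ENSMUSG00000020914, chr11:98992943-99024189) measured 460.0, 474, 463 and 489 CPM at 37 °C and 52.3, 57.8, 59.1 and 63.3 CPM at 39 °C. Its log2 change was -3.02 (SE 0.058, adjusted p = 4.55e-18), or 8.10-fold lower, with 4 libraries at each temperature close together.

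The shared core of the condensins fell less. Smc2 (ENSMUSG00000028312, chr4:52439243-52488260) measured 264, 265, 275 and 285 CPM at 37 °C and 84.4, 83.6, 88.7 and 88.7 CPM at 39 °C, a log2 change of -1.66 (SE 0.047). Smc4 (ENSMUSG00000034349, chr3:69004738-69034623), the partner, measured 352, 349, 349 and 368 CPM at 37 °C and 147, 142, 159 and 151 CPM at 39 °C, a log2 change of -1.24 (SE 0.049). Smc2 was thus 3.15-fold and Smc4 2.37-fold lower, and only Smc2 of the pair was called. Adjusted p-values were 5.37e-16 and 6.00e-14.

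The 3 subunits that belong to condensin I alone were all called. Ncapg (ENSMUSG00000015880, chr5:45669919-45700546), a HEAT-repeat subunit, measured 53.3, 56.1, 58.5 and 58.9 CPM at 37 °C and 9.31, 9.20, 9.88 and 9.60 CPM at 39 °C. Its log2 change was -2.58 (SE 0.055, adjusted p = 1.71e-17), the third in size among the 10 genes. Ncapd2 (ENSMUSG00000038252, chr6:125168007-125191701), the other HEAT-repeat subunit, ranged from 33.6 to 41.5 CPM at 37 °C and from 10.1 to 11.9 CPM at 39 °C, a log2 change of -1.77 (SE 0.070). Ncaph (ENSMUSG00000034906, chr2:127103809-127133954), the kleisin that closes the ring, ranged from 48.5 to 55.1 CPM and from 15.5 to 18.8 CPM, a log2 change of -1.63 (SE 0.064).

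The HMGB genes fell in the order Hmgb2, Hmgb1, Hmgb3. Hmgb2 (ENSMUSG00000054717, chr8:57511907-57515999) measured 395, 455, 454 and 405 CPM at 37 °C and 112, 92.5, 114 and 97.4 CPM at 39 °C, a log2 change of -2.04 (SE 0.070, adjusted p = 7.21e-15). Hmgb1 (ENSMUSG00000066551, chr5:149046702-149184489) measured 422, 491, 455 and 447 CPM and then 224, 192, 202 and 183 CPM, a log2 change of -1.18 (SE 0.063, adjusted p = 4.43e-12). Hmgb3 (ENSMUSG00000015217, chrX:71555918-71560676) measured 39.9, 46.5, 45.7 and 46.7 CPM and then 24.3, 24.5, 25.0 and 25.1 CPM, a log2 change of -0.85 (SE 0.055, adjusted p = 7.30e-11). Only Hmgb2 of the 3 was called, and the levels of the groups did not overlap for any of them. The HMGB genes have near-identical pseudogene copies, and how reads shared with such copies were counted is not given in the sources used here, so their levels are uncertain to that extent.

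**Figure D1:**
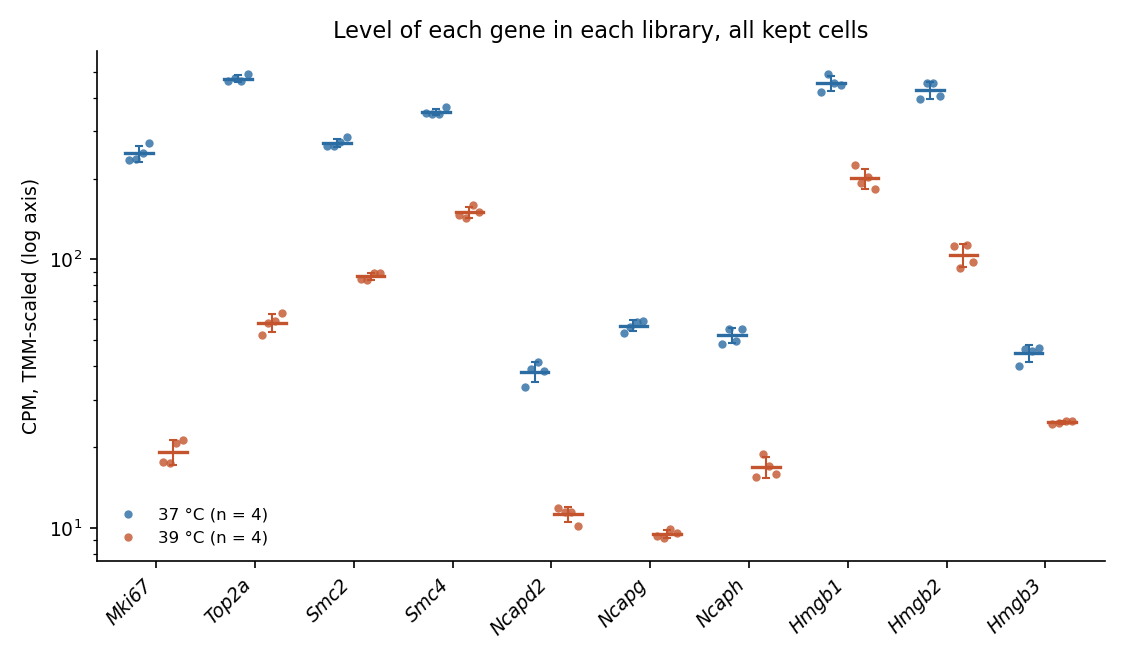
Level of each of the 10 genes in CPM (log axis) in every library, summed over all kept cells. Each point is 1 library, 4 at 37 °C and 4 at 39 °C, with bars for the mean and SD; for every gene the 39 °C points lie below the 37 °C points, with the widest gap in Mki67 and the narrowest in Hmgb3.

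The phases of the cell cycle changed with temperature, so the genes were also measured within each phase. Every kept cell was put in G1, S or G2M by Seurat's phase scores, computed over all libraries together with the 10 genes left out of the scoring lists, 5 of which (Mki67, Top2a, Smc4, Ncapd2 and Hmgb2) stand in the G2M list. G1 held 20.5% to 28.7% of cells at 37 °C and 82.1% to 85% at 39 °C, S held 38.0% to 43.2% and 10.8% to 12.3%, and G2M held 33.3% to 36.3% and 3.15% to 5.64%. G1 here means low scores for both S and G2M, which resting cells also have. The cells of a phase were not alike at the 2 temperatures. The median G2M score of G2M cells was 0.468 to 0.519 at 37 °C and 0.167 to 0.327 at 39 °C, and the median S score of S cells was 0.206 to 0.239 and 0.0868 to 0.105.

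At both temperatures each of the 10 genes was lowest in G1, higher in S and highest in G2M, with no overlap between the phases over the 4 libraries. The scoring lists hold genes that vary together with some of the 10 across cells, so this order is not independent of the phase assignment. The step was steepest for Mki67, whose level without TMM scaling at 37 °C was 15.8 to 22.3 CPM in G1, 106 to 116 CPM in S and 497 to 551 CPM in G2M, and at 39 °C 1.17 to 1.73, 38.5 to 51.9 and 277 to 421 CPM. The ratio of the G2M to the G1 level at 37 °C was 28.9 ± 3.26 (SD, n = 4) for Mki67, 22.1 ± 2.69 for Top2a, 11.6 ± 2.98 for Ncapg, 10.2 ± 0.404 for Hmgb2, 7.18 ± 0.509 for Ncapd2, 5.65 ± 0.466 for Smc2, 4.68 ± 0.462 for Ncaph, 3.77 ± 0.340 for Smc4, 3.66 ± 0.432 for Hmgb3 and 2.17 ± 0.0858 for Hmgb1. In this order the libraries of Mki67 and Top2a, of Ncapg and Hmgb2, of Smc2 and Ncaph, and of Smc4 and Hmgb3 overlapped, and those of the other neighbours did not. At 39 °C the ratio was 219 ± 38.4 for Mki67, 26.7 ± 5.21 for Top2a, 10.1 ± 1.69 for Hmgb2, 2.90 ± 0.611 for Hmgb3 and 2.63 ± 0.252 for Hmgb1. The libraries of both temperatures overlapped in this ratio for Top2a, Hmgb2 and Hmgb3, and not for Mki67 and Hmgb1.

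In G1 cells 8 of the 10 genes fell, against 22.2% of all genes tested there, but Mki67 was the only gene called, against 1.52% of all genes. Mki67 measured 16, 17, 17.6 and 22.0 CPM at 37 °C and 1.69, 1.75, 1.35 and 1.18 CPM at 39 °C, on 91 to 120 and 25 to 39 UMIs per library. Its log2 change of -3.60 (SE 0.148, adjusted p = 1.89e-14, edgeR) was as large as in all cells, 12.1-fold. The other genes changed much less than in all cells. Top2a went from 47.4, 38.9, 36.4 and 45.7 CPM to 21.6, 23.9, 22.2 and 22.4 CPM, a log2 change of -0.91 (SE 0.076, adjusted p = 1.46e-09). Ncapg fell by 0.90 on the log2 scale (SE 0.138, adjusted p = 1.08e-05) and Hmgb1 by 0.58 (SE 0.065, adjusted p = 1.26e-07). Smc2, Smc4, Ncaph and Hmgb2 fell by 0.19 to 0.26 with libraries that overlapped, and Ncapd2 had a log2 change of -0.24 that did not pass (adjusted p = 0.0793). All 39 °C libraries lay below all 37 °C libraries in 5 genes (Mki67, Top2a, Ncapd2, Ncapg and Hmgb1), as they did for 20.3% of all genes.

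Hmgb3 went the other way in G1 cells. It measured 16.1, 21.5, 15.9 and 16.5 CPM at 37 °C and 22.4, 22.0, 22.2 and 22.4 CPM at 39 °C, a log2 change of 0.36 (SE 0.085, adjusted p = 1.28e-03, edgeR). The groups did not overlap, although the second 37 °C library came close, and 24.7% of all genes rose in G1 cells, with 23.8% free of overlap in that direction. The rise held without any single library. It turned to a log2 change of -0.37 (adjusted p = 9.50e-04) when the phases were scored in each library by itself, which put 38.5% to 42.5% of 37 °C cells and 50.3% to 56.1% of 39 °C cells in G1. Under that scoring all 10 genes fell in G1, against 25.9% of all genes, and 3 were called lower, against 2.39%.

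A narrower G1 was also taken, with both scores under -0.1, which left 201 to 351 cells per library at 37 °C and 663 to 1903 at 39 °C. There Mki67 still fell, with a log2 change of -3.12 (SE 0.233, adjusted p = 7.07e-11, edgeR), and so did Ncapg (-0.99), Top2a (-0.62) and Hmgb1 (-0.36). Hmgb3 still rose, with a log2 change of 0.63 (SE 0.108, adjusted p = 4.08e-05). Of all genes 17.9% fell and 19.5% rose in these cells. Smc2, Smc4, Ncaph and Hmgb2 no longer passed, with log2 changes between -0.12 and -0.07, and Ncapd2 was at -0.05. Without the first 39 °C library the adjusted p of Ncaph in G1 as first assigned was 0.0509, and leaving out 1 of 5 other libraries also ended its pass, at 0.0688 to 0.0927. For Smc4 leaving out the first 37 °C library did so, at 0.0750.

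In S cells all 10 genes fell, against 23.5% of all genes. None was called by edgeR or DESeq2, against 0.98% of all genes in edgeR. Mki67 measured 121, 110, 109 and 118 CPM at 37 °C and 36.4, 42.8, 41.0 and 50.2 CPM at 39 °C, a log2 change of -1.41 (SE 0.081, adjusted p = 9.77e-15, edgeR). Top2a followed with -1.05 (SE 0.069), then Ncaph with -0.80, Ncapg with -0.68, Hmgb1 with -0.66 and Smc2 with -0.54. Smc4, Hmgb2 and Hmgb3 fell by 0.37 to 0.39, and Ncapd2 had the smallest change, -0.27 (adjusted p = 0.0428). Ncapd2 was the only gene of the 10 whose libraries overlapped, and it did not pass when 1 of 5 libraries was left out (adjusted p 0.0521 to 0.261), nor in 7 other settings, among them RLE factors, library totals and DESeq2 (adjusted p 0.0522 to 0.206). In 9 genes all 39 °C libraries lay below all 37 °C libraries, as in 23% of all genes.

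In G2M cells 9 genes fell, against 17.3% of all genes. None was called by edgeR or DESeq2, against 0.946% of all genes in edgeR. Mki67 measured 521, 517, 560.0 and 560.0 CPM at 37 °C and 392, 276, 302 and 271 CPM at 39 °C, a log2 change of -0.83 (SE 0.089, adjusted p = 6.21e-10, edgeR). Ncapg (-0.78), Top2a (-0.75), Ncaph (-0.54), Smc2 (-0.51) and Ncapd2 (-0.49) came next, then Hmgb1 (-0.43), Smc4 (-0.39) and Hmgb2 (-0.39). For Hmgb3 the log2 change was -0.15, with a 95% interval from -0.36 to 0.06 (adjusted p = 0.323). The 39 °C libraries held only 31, 115, 129 and 197 G2M cells, and the first of them, with 31, was the highest 39 °C library in 9 of the 10 genes. Ncapd2 shows this: it measured 63.0, 73.2, 77.1 and 66.3 CPM at 37 °C and 83.6, 48.0, 46.7 and 39.0 CPM at 39 °C. In 6 genes all 39 °C libraries lay below all 37 °C libraries, as in 20.9% of all genes. Without the library of 31 cells the same 9 genes fell, and the log2 change of Hmgb3 was -0.24 (adjusted p = 0.0927). With DESeq2 8 of the 10 passed, without Hmgb2 (adjusted p = 0.0666). Hmgb2 no longer passed in edgeR without the second 39 °C library (adjusted p = 0.0517), nor Ncapd2 without the fourth (adjusted p = 0.0513).

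The falls in G2M depended on which G2M cells were compared. When only cells with a G2M score over 0.3 were kept, 429 to 760 cells per library at 37 °C and 16, 45, 55 and 64 at 39 °C, none of the 10 genes passed in edgeR, where 8.71% of all genes fell. An unadjusted p under 0.05 was found for 5, all lower at 39 °C. The share of all genes at that unadjusted threshold was not computed, so this count cannot be set against it. Median scores of these cells were 0.556 to 0.609 and 0.493 to 0.586. The log2 change of Mki67 was then -0.19, with a 95% interval from -0.37 to -0.02 (adjusted p = 0.139), that of Top2a -0.21 (-0.39 to -0.04), that of Ncapd2 0.0049 (-0.27 to 0.28) and that of Hmgb2 0.04 (-0.15 to 0.23). With phases scored in each library by itself all 10 genes fell in G2M, against 29.4% of all genes, and 8 were called lower, against 3.71%. That scoring put 27.7% to 30.1% of 37 °C cells and 15.2% to 22.4% of 39 °C cells in G2M. Joint scoring had put 33.3% to 36.3% and 3.15% to 5.64% there. The 39 °C group thus held many cells that joint scoring placed in other phases, and the 2 sets of falls do not describe the same cells.

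**Figure D2:**
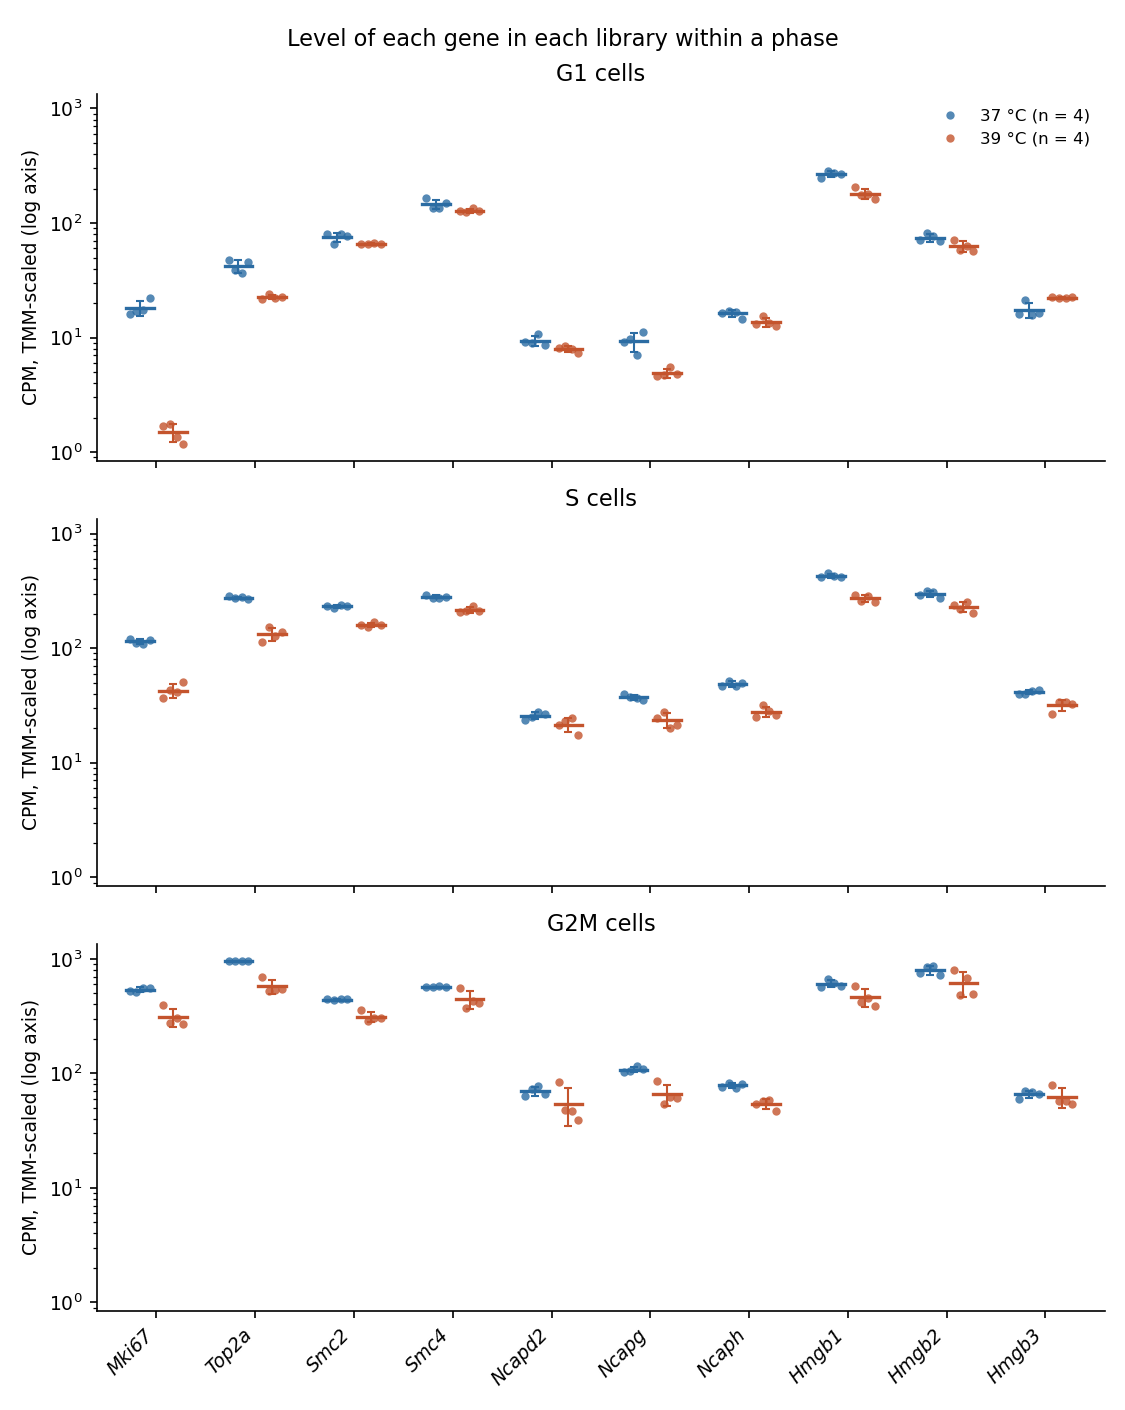
Level of each gene in CPM (log axis) in every library within G1, S and G2M cells. Each point is 1 library with bars for the mean and SD; the G1 panel shows the gap in Mki67 and the higher 39 °C points of Hmgb3, and in the G2M panel the single high 39 °C point of most genes is the library with 31 cells.

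Whether temperature acted differently in G2M and G1 was tested as an interaction in edgeR, with the library as a block. Of the 10 genes 4 passed. The effect on Mki67 was 2.76 higher in G2M than in G1 on the log2 scale (SE 0.146, adjusted p = 1.31e-32), since its G1 level fell far more. The effect was lower in G2M than in G1 for Hmgb3, by -0.51 (SE 0.130, adjusted p = 4.78e-03), for Smc2, by -0.33 (SE 0.069, adjusted p = 2.83e-04), and for Smc4, by -0.23 (SE 0.065, adjusted p = 0.0131). The pass of Smc4 depended on the setting: its adjusted p was 0.129 with RLE factors, 0.178 with the filterByExpr filter, 0.156 with the 10 genes in the phase lists, and 0.0556, 0.0553 and 0.104 without 37 °C replicate 2, 37 °C replicate 3 or 39 °C replicate 2. Hmgb1 did not pass (0.15, adjusted p = 0.103) but passed under those 3 settings and without the upper limit on genes (adjusted p 0.00743 to 0.0207). Hmgb2 passed without 39 °C replicate 1 or 3 (-0.20 and -0.22, adjusted p = 0.0217 and 0.0267, edgeR). Over all genes 2.52% had a higher and 5.57% a lower effect in G2M. With the narrower G1 and G2M groups the difference was 2.91 for Mki67 (adjusted p = 3.79e-35) and -0.73 for Hmgb3 (adjusted p = 4.00e-03). Top2a (0.39, adjusted p = 0.00925), Ncapg (0.68, adjusted p = 0.0356) and Hmgb1 (0.30, adjusted p = 0.00402) also passed in edgeR there, while Smc2 (-0.18) and Smc4 (-0.02) did not. Over all genes 1.67% had a higher and 2.79% a lower effect in G2M in these groups.

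**Figure D3:**
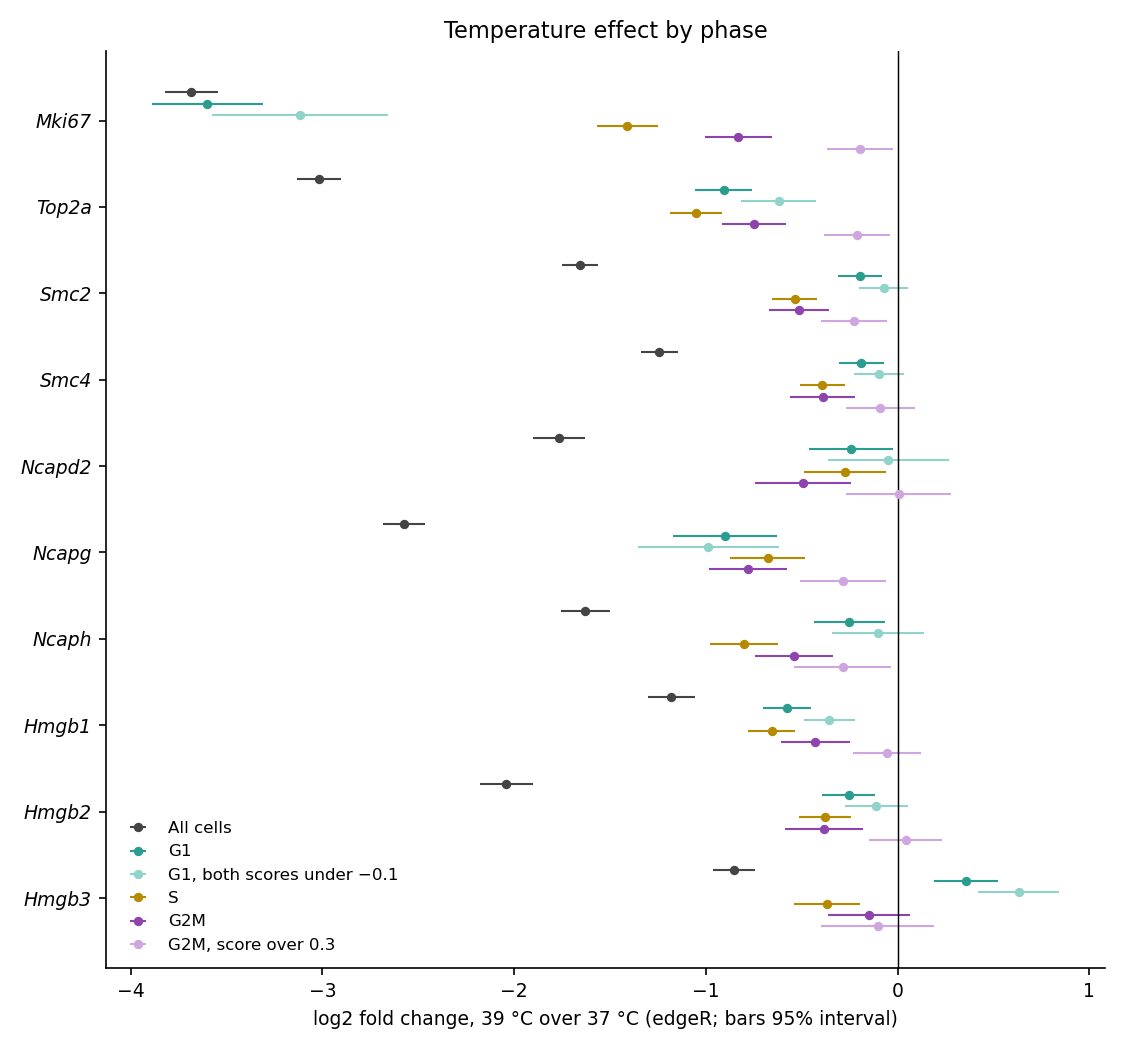
Log2 fold change of 39 °C over 37 °C for each gene in all cells, in each phase, and in the narrower G1 and G2M groups, with bars for the 95% interval from edgeR. All genes lie left of 0 in all cells, Mki67 stays near its full change in both G1 groups and lies close to 0 in G2M cells with a score over 0.3, and Hmgb3 lies right of 0 in both G1 groups.

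The UMIs of the 10 genes were spread unevenly over the phases. At 37 °C G2M cells held 37.4% of all UMIs, but 79.7% ± 0.693 (SD, n = 4) of those of Mki67, 74.3% ± 0.824 of those of Top2a and 68.1% ± 0.600 of those of Hmgb2. At 39 °C G2M cells held 4.31% of all UMIs, but still 68.8% ± 4.20 of those of Mki67, 42.4% ± 4.48 of those of Top2a and 25.2% ± 4.53 of those of Hmgb2. Hmgb1 and Hmgb3 leaned the same way but less. G2M cells held 49.0% and 54.0% of their UMIs at 37 °C and 9.86% and 10.7% at 39 °C. G1 cells held 12.7% ± 1.51 and 8.43% ± 1.73 of their UMIs at 37 °C, beside 21.1% of all UMIs, and 75.1% ± 2.20 and 75.2% ± 1.83 at 39 °C, beside 84.9%.

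In droplets free RNA adds UMIs of every gene to every cell, in proportion to its level in the library, so the level in G1 cells was set against that of the whole library. For Mki67 it was 7.42% ± 0.664 (SD, n = 4) of the library level at 37 °C and 7.80% ± 2.20 at 39 °C, so the G1 level of Mki67 moved together with its library level. At 39 °C this was the lowest share among 7020 genes with at least 15 CPM, and at 37 °C the lowest of 6955 genes was 3.19%, in Mxd3. These lowest shares were picked from many genes and carry counting error, so they set no firm limit on free RNA. How much of the G1 count of Mki67 was free RNA was not tested. For the other genes the share was higher at 39 °C: from 9.08% to 38.2% for Top2a, 17.8% to 59.4% for Hmgb2, 41.9% to 84.3% for Smc4, 60.4% to 88.5% for Hmgb1 and 39.9% to 88.6% for Hmgb3. The library level is itself a mixture of phases, and G1 cells held 21.1% of all UMIs at 37 °C and 84.9% at 39 °C. With more G1 cells in a library its level lies nearer the G1 level. A higher share at 39 °C therefore describes neither G1 cells by themselves nor free RNA.

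The share of cells with a UMI was compared with each cell thinned to 5000 UMIs, which left out 668 shallower cells at 37 °C and 1668 at 39 °C. Mki67 was found in 43.8% ± 2.66 (SD, n = 4) of cells at 37 °C and 4.46% ± 0.702 at 39 °C, and Top2a in 54.7% ± 2.64 and 14.5% ± 1.49. Ncapg went from 20.7% to 4.35%, Ncapd2 from 16.2% to 5.15%, Ncaph from 19.7% to 7.61% and Smc2 from 60.1% to 32.4%. Smc4 went from 71.7% to 48.9%, Hmgb1 from 82.5% to 59.6%, Hmgb2 from 67.3% to 32.5% and Hmgb3 from 18.1% to 11%. Without thinning Mki67 was found in 56.0% ± 3.55 and 6.26% ± 0.842 of cells. A cell held a UMI of 4.55 ± 0.142 of the 10 genes on average at 37 °C and of 2.20 ± 0.0495 at 39 °C, and in G2M cells of 6.38 ± 0.0827 and 5.38 ± 0.454.

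Within G1 cells a Mki67 UMI was found in 141 of 1812 cells at 37 °C and 49 of 6850 at 39 °C, a mean over libraries of 7.78% ± 0.214 and 0.736% ± 0.30. Top2a was found in 16.2% ± 3.41 and 9.05% ± 1.05 of G1 cells, and Hmgb3 in 7.76% ± 0.471 and 9.89% ± 0.783. Without thinning the shares in G1 cells were 14.8% ± 2.06 and 1.56% ± 0.855 for Mki67 and 16.9% ± 3.48 and 19.2% ± 5.86 for Hmgb3. Both genes kept their direction, but for Hmgb3 the unthinned means differed by less than either SD. The culture has no cell type known to lack these genes, so no share from such cells stands beside these values, which carry counting error as well as the spread shown.

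**Figure D4:**
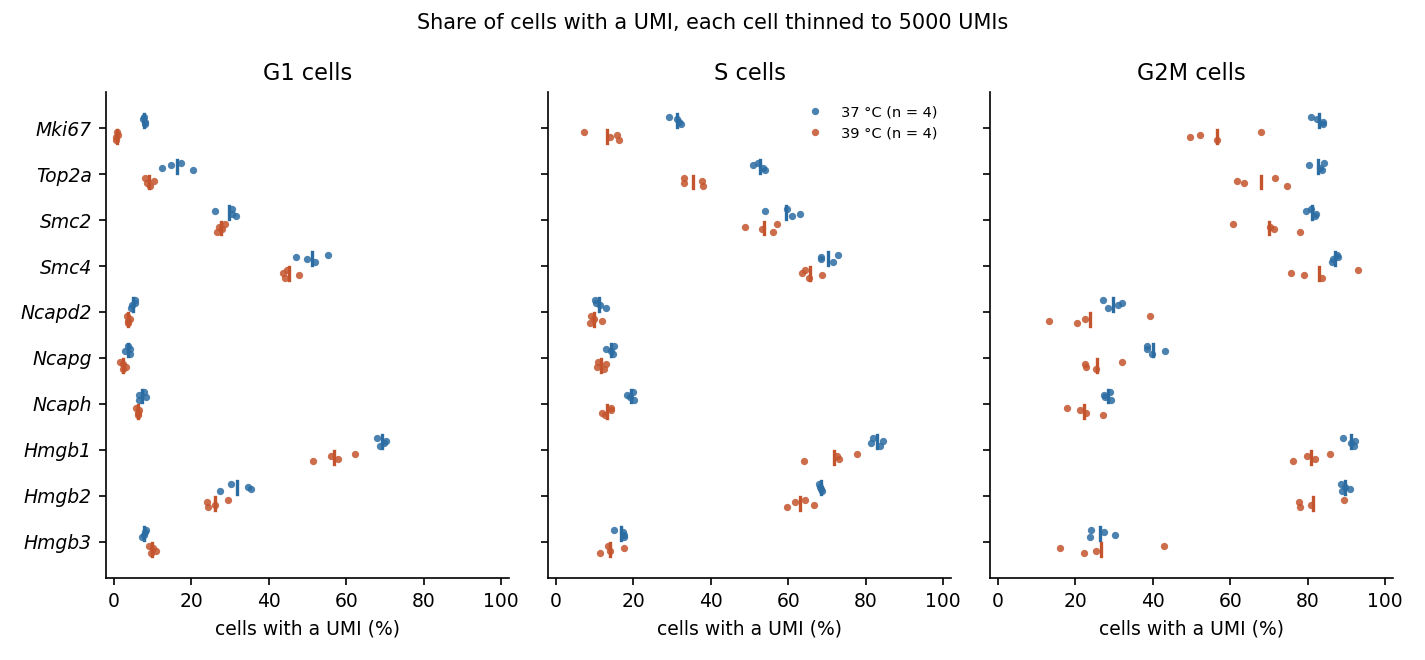
Share of cells with at least 1 UMI of each gene, in percent, with each cell thinned to 5000 UMIs, in G1, S and G2M cells. Each point is 1 library and the bar is the mean; in G1 cells the Mki67 points fall from about 7.78% to 0.736%, while those of Hmgb3 lie slightly higher at 39 °C.

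Ratios within a library do not depend on scaling, so 4 were tested by a two-sided exact permutation test over the 70 ways to assign 8 libraries, whose smallest p is 0.0286. The number of Hmgb2 UMIs per Hmgb1 UMI was 0.935, 0.926, 0.999 and 0.905 at 37 °C and 0.502, 0.481, 0.561 and 0.533 at 39 °C. It was lower in all 4 libraries at 39 °C, by -0.86 on the log2 scale (exact permutation p = 0.0286, adjusted over 4 ratios 0.0286). Hmgb3 per Hmgb1 was 0.0946, 0.0948, 0.101 and 0.104 at 37 °C and 0.109, 0.127, 0.124 and 0.137 at 39 °C, a difference of 0.33. Relative to Hmgb1, Hmgb3 thus gained and Hmgb2 lost. Smc2 per Smc4 was 0.750, 0.761, 0.787 and 0.774 and then 0.576, 0.588, 0.557 and 0.589, a difference of -0.41. The 3 condensin I subunits per 3 condensin II subunits were 0.535, 0.581, 0.577 and 0.571 and then 0.302, 0.309, 0.290 and 0.275, a difference of -0.94. These 3 ratios had the same exact permutation p and adjusted p of 0.0286. In the condensin ratio the denominator rests largely on Ncaph2, the most abundant condensin II subunit (mean 161 CPM at 37 °C and 95.6 CPM at 39 °C). Ncaph2 also fell least of the 3 condensin II subunits, with a log2 change of -0.75, so the ratio does not describe all subunits alike.

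Within G1 cells the ratios behaved differently. Hmgb2 per Hmgb1 turned round, from 0.285, 0.285, 0.284 and 0.256 at 37 °C to 0.349, 0.335, 0.350 and 0.355 at 39 °C, a difference of 0.32 (exact permutation p = 0.0286, adjusted p = 0.0571). Hmgb3 per Hmgb1 kept its direction with a difference of 0.94 (adjusted exact permutation p = 0.0571). Smc2 per Smc4 differed by -0.0061 and condensin I per condensin II by -0.015 on the log2 scale, each with an adjusted exact permutation p of 1. The libraries of both temperatures overlapped in these last 2 ratios, whose SDs at 37 °C were 0.128 and 0.085.

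**Figure D5:**
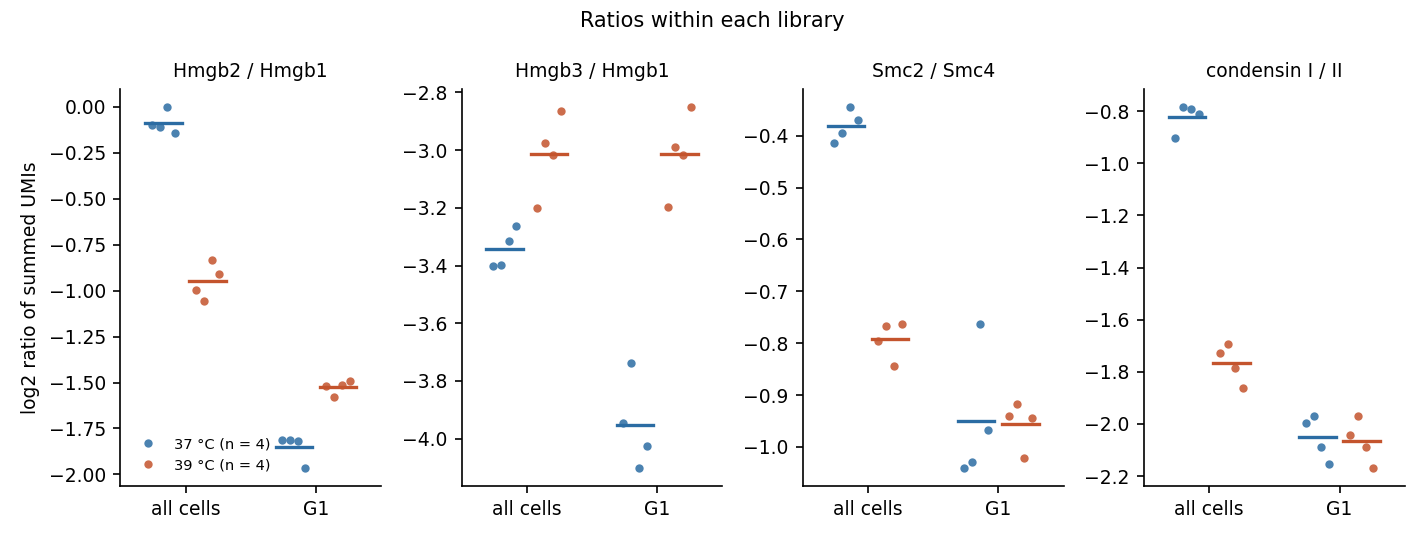
Log2 ratio of summed UMIs within each library for 4 pairs, over all cells and over G1 cells; points are libraries, lines are means, and each panel has its own axis. The Hmgb2 to Hmgb1 points at 39 °C lie below those at 37 °C in all cells and above them in G1 cells, and the Smc2 to Smc4 and condensin points overlap in G1 cells.

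Across single cells at 37 °C the 5 genes most like Mki67 among 7126 genes, with the 10 genes themselves set apart, by Pearson's r of log-normalised counts averaged over 4 libraries, were Birc5 (0.741), Cenpf (0.733), Hmmr (0.710), Cenpe (0.708) and Kif11 (0.693). Of the 10 genes Top2a (0.713) stood between Cenpf and Hmmr. For Hmgb2 the 5 nearest genes were Prc1 (0.633), Kif20b (0.632), Birc5 (0.632), Nusap1 (0.619) and Kif11 (0.618), below Mki67 (0.684) and Top2a (0.679) of the 10 genes. All of the genes outside the 10 are genes of mitosis, and all but Prc1 stand in the G2M scoring list. Among the 10 genes themselves Mki67 and Top2a had a mean r of 0.71 at 37 °C and 0.62 at 39 °C, and Mki67 and Hmgb2 0.68 and 0.45. Hmgb1 and Hmgb3 had 0.22 and -0.02. Cells of 1 library share its depth and phase mixture, so these values describe the libraries and carry no test.

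Of 51 other genes of chromosome structure, 50 could be tested in all cells (all but Hmgb4), and 32 fell, 12 rose and 6 did neither, where 30.5% of all genes fell and 31.5% rose. Called lower were 14, against 3.62% of all genes, and called higher was 1, the fetal chromatin protein gene Hmga2, and the list's median log2 change was -0.67 beside 0.02 over all genes. The 3 condensin II subunits all fell: Ncapg2 from 47.5 to 9.83 CPM (log2 change -2.26), Ncapd3 from 51.2 to 22.1 (-1.20) and Ncaph2 from 161 to 95.6 (-0.75), and only Ncapg2 was called. In G1 cells Ncapd3 had a log2 change of -0.04 (adjusted p = 0.786, edgeR), while Ncapg2 (-0.63) and Ncaph2 (-0.43) fell. In G2M cells Ncapd3 was at -0.09 (adjusted p = 0.599), with Ncapg2 at -0.35 and Ncaph2 at -0.33, both lower.

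Among regulators of condensation 10 of 11 fell and Akap8l rose. The largest falls were those of the mitotic kinase gene Plk1 (log2 change -3.90, from 40.7 to 2.76 CPM) and Birc5, which encodes survivin of the chromosomal passenger complex (-3.56, from 226 to 19.1 CPM). The 3 genes of the chromosome periphery fell, Cdca2 by 3.09 and Ppp1cc by 0.68 on the log2 scale. Of 14 cohesin genes 7 fell and 4 rose, the latter near the share of all genes, and the 2 largest changes were in Esco2 (-3.43), an acetyltransferase that ties sister chromatids together, and Cdca5 (-2.98), which encodes sororin. Of the topoisomerase genes other than Top2a, Top1 (0.31) and Top3b (0.51) rose and 1 of 4 fell. Of the SMC5/6 complex Smc6 fell (-0.76) and Nsmce2 rose (0.25).

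Of 9 other HMG genes tested 6 fell and 3 rose. Hmgn2 encodes a protein that binds nucleosomes, and its mean level was 62.5 CPM at 37 °C (SD 6.48) and 15.6 CPM at 39 °C (SD 2.26), a log2 change of -2.02 (SE 0.083, edgeR). Hmga2 rose from 56.4, 46.9, 57.5 and 55.0 CPM at 37 °C to 214, 224, 228 and 250 CPM at 39 °C, a log2 change of 2.09 (SE 0.064). In all cells 2.21% of all genes were called higher and 28.7% had every 39 °C library above every 37 °C library. Hmga2 did both in each phase as well, with log2 changes of 1.80 in G1, 2.13 in S and 2.24 in G2M cells. Over all genes 0.993%, 1.28% and 1.31% were called higher in these phases, and 23.8%, 17.6% and 13.2% had all 39 °C libraries above. Of 3 receptor genes of extracellular HMGB1, Tlr4 fell, from 3.03 ± 0.350 to 2.21 ± 0.199 CPM (SD, n = 4), and Tlr2 rose, from 6.15 ± 0.798 to 8.55 ± 1.70 CPM. In S cells Tlr2 fell instead, with a log2 change of -0.91 (adjusted p = 0.00941, edgeR), and in G1 and G2M cells it did not pass.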

How the data were processed

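The 8 libraries were prepared with the 10x Chromium Single Cell 3′ V3 kit from SN4741 cells, 4 at 37 °C and 4 at 39 °C. The deposited files hold UMI counts per gene and cell, made by the authors with Cell Ranger 3.0.1 on mm10, with no normalisation. The annotation release is not given in the sources used here. Cells over 15% mitochondrial UMIs, under 200 or over 6000 genes were left out, the limits of the study's methods. Doublets were treated only through the upper limit on genes. UMIs were summed per library, over all cells and per phase, because cells are not replicates.

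Sums were tested with edgeR 4.0.16 (quasi-likelihood, TMM factors, temperature as the only term) over all genes that averaged 1 count or more per library. Phases came from Seurat 5.3.0 without the 10 genes in its lists. The interaction used G1 and G2M sums with a term for each library. Ratios used exact permutation tests in Python. Cells were thinned to 5000 UMIs for shares. R 4.3.3 and scipy 1.17.1 were used. On simulated counts 200 genes above a minimum count were changed by 2.5 in size on the log2 scale. There edgeR recovered 200 in all cells, in G1 and in S cells and 196 in G2M cells, and the interaction recovered 199. False calls were 1 in G2M cells, 4 in the interaction and 0 in the others. Recovery of smaller changes and of genes with fewer counts was not tested.

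Alternatives were RLE factors or library totals for TMM, other count filters, DESeq2 1.42.0, limma 3.58.1 on mean scaled counts, a replicate block, other cell limits, phase lists with the genes, phases per library, each library left out, and 2 narrower phase groups chosen after seeing the data. The 10 genes, the other lists and the tests were chosen with earlier results of these data known. The 10 genes are all named. Of the chromosome structure list the condensin II subunits are named, with the 2 largest changes among genes that passed with a mean of at least 10 CPM in each other role, and 5 neighbours each for Mki67 and Hmgb2. Genes named outside this rule were chosen after their values were seen: Akap8l, Tlr2, Tlr4 and Mxd3. Intervals and shares cover counting error or the spread of libraries only.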

Additional observations from a re-analysis of the deposited data

Results flagged for a closer look

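Among 88 groups of 4 libraries tested for a library far from the other 3, 7 were over the limit (7.95%), where chance gives about 1 in 20. In all cells Smc4 was high in 37 °C replicate 4, at 368 CPM beside 349 to 352 CPM, and Hmgb3 was low in 37 °C replicate 1, at 39.9 CPM beside 45.7 to 46.7 CPM. In G1 cells Hmgb3 was high in 37 °C replicate 2, at 21.5 CPM beside 15.9 to 16.5 CPM. Without that library its log2 change in G1 was 0.46. In S cells Smc4 was high in 39 °C replicate 3, at 234 CPM beside 205 to 210.0 CPM, and Hmgb3 was low in 39 °C replicate 1, at 26.6 CPM beside 32.9 to 34.0 CPM. In G2M cells 39 °C replicate 1, which had 31 such cells, was high for Top2a, at 695 CPM beside 522 to 545 CPM, and for Hmgb3, at 79.9 CPM beside 53.7 to 57.7 CPM.

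The temperature effect differed between G2M and G1 cells in edgeR's interaction test for 4 genes. Over all genes 2.52% had a higher and 5.57% a lower effect in G2M. The difference was 2.76 on the log2 scale for Mki67, -0.33 for Smc2, -0.23 for Smc4 and -0.51 for Hmgb3. With the narrower phase groups, chosen after seeing the data, Smc2 and Smc4 did not pass, at -0.18 and -0.02, Mki67 and Hmgb3 did, and Top2a (0.39), Ncapg (0.68) and Hmgb1 (0.30) passed as well. In those groups 1.67% of all genes had a higher and 2.79% a lower effect in G2M. Smc4 also did not pass under 3 other settings and without 3 single libraries. With phases scored in each library by itself all 10 genes passed, as did 2954 of 14290 genes tested. The differences of Top2a, Ncapg and Hmgb1 then turned to -0.91, -0.62 and -0.59.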

How the results depend on the processing

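In all cells each of 170 alternative values of the 10 genes kept its direction and passed, but with limma on mean scaled counts 6 rather than 7 were called, since the log2 change of Smc2 was -1.49. In G1 cells 176 of 190 did as first reported, in S cells 168 of 180 and in G2M cells 177 of 190. Phases scored in each library by itself moved most: 3 genes were then called lower in G1, 4 in S and 8 in G2M cells, and Hmgb3 in G1 turned to -0.37. This scoring also changed which cells were compared, with 15.2% to 22.4% of 39 °C cells in G2M. All 10 differed between G2M and G1, as did 2954 of 14290 genes tested, beside 1162 of 14354 with joint scoring. The difference of effects turned to -0.91 for Top2a, -0.62 for Ncapg and -0.59 for Hmgb1. Of 14585 genes tested in G1 this scoring called 348 lower and 206 higher (223 and 146 with joint scoring). It called 333 and 286 of 13969 in S (135 and 176) and 518 and 443 of 13954 in G2M (130 and 180). With the phase lists including the 10 genes 1 was called in S cells. Without 39 °C replicate 4 also 1 was called in S cells, and leaving out single libraries gave 0 to 1 there. With G2M scores over 0.3, 64 genes were called lower and 88 higher, and the log2 changes of Ncapd2 and Hmgb2 turned to 0.0049 and 0.042. With the narrower G1 and G2M groups the difference of effects turned to 0.062 for Ncapd2 and 0.14 for Hmgb2. DESeq2 called 91 genes lower and 214 higher in G2M cells. The cause of these changes was not tested.

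No label says whether the replicate numbers pair the libraries. Correlations of deviations were -0.12, -0.12, -0.09 and 0.29 for numbers 1 to 4, and -0.32 to 0.31 between unlike numbers, which does not settle it. With the replicate block 7 of the 10 genes were called in all cells, 1 in G1 and 0 in S and G2M, with 545 genes lower and 333 higher in all cells. A sign-flip over pairs as replicate block left the ratios at -0.86, 0.33, -0.41 and -0.94 with an exact p of 0.125, the smallest that 4 pairs allow. In G1 cells the 4 ratios were 0.32, 0.94, -0.0061 and -0.015. Leaving out single libraries gave -0.90 to -0.82 for Hmgb2 to Hmgb1, 0.28 to 0.39 for Hmgb3 to Hmgb1, -0.42 to -0.39 for Smc2 to Smc4 and -0.97 to -0.91 for condensin I to II, where the smallest exact permutation p is 0.0571. Depth limits the G2M values at 39 °C, which rest on 31 to 197 cells per library.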
